A study of Mus musculus with 24 samples.

Results

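The endoplasmic reticulum (ER) chaperones and the genes of the unfolded protein response were followed through 10 transcripts, Hspa5, Hsp90b1, Dnajb9, Xbp1, Pdia4, Sdf2l1, Herpud1, Creld2, Calr and Edem1. They were taken by gene symbol from a joined expression table of 24532 genes, and all 10 were found. The question was whether the stress response of the LKO liver included ER stress. LKO mice carried Alb-Cre;Crif1flox/flox, in which the albumin promoter drives Cre in hepatocytes, and Ctrl mice carried Crif1flox/flox without Cre. All mice were C57BL/6, ate chow and were 8 weeks old. CRIF1, encoded by Gadd45gip1, is a mitochondrial ribosome protein needed to make the subunits of oxidative phosphorylation that mitochondria encode. RNA was sequenced from liver, inguinal white adipose tissue (iWAT), gastrocnemius muscle (GM) and hypothalamus, with 3 libraries per genotype and tissue. Whether 1 mouse gave all 4 tissues is not stated in the labels.

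When unfolded protein builds up in the ER lumen, the 3 sensors IRE1 (Ern1), PERK (Eif2ak3) and ATF6 are released from the lumenal chaperone BiP. ATF6 and the spliced form of XBP1 then switch on genes for chaperones, disulfide enzymes and ER-associated degradation. PERK phosphorylates eIF2alpha, which favours ATF4. Kinases that sense amino acid shortage or mitochondrial trouble also do so, and for that reason ATF4 targets alone do not tell ER stress from the wider integrated stress response. Hepatocytes secrete most plasma proteins and hold an abundant ER.

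ATF6 and XBP1 read short elements in the promoters of their target genes. RefSeq windows on GRCm38.p6, from 250 bases before to 50 bases after the start, were searched on both strands for 3 motifs. These were the ER stress response element (ERSE: CCAAT, any 9 bases, CCACG), ERSE-II (ATTGG, any 1 base, CCACG) and the unfolded protein response element (UPRE: TGACGTGG). An exact ERSE was present in 4 of the 10 promoters, against 0.119% of all 32851 promoter windows. Herpud1 held ERSE-II, a motif found in 0.0365% of the windows. No exact UPRE was present in the 10, against 0.676% of all windows. The 10 were picked as genes of this response, so these shares are a description and not a test. Dnajb9, Xbp1, Pdia4, Sdf2l1 and Edem1 matched none of the 3 motifs, which says only that these letters are not in these windows. The 5 promoters with a match are printed below together with that of Sdf2l1, the gene that varied most among LKO livers. Each reads 5′ to 3′ on the strand of the gene, with matches in capitals:
Hspa5: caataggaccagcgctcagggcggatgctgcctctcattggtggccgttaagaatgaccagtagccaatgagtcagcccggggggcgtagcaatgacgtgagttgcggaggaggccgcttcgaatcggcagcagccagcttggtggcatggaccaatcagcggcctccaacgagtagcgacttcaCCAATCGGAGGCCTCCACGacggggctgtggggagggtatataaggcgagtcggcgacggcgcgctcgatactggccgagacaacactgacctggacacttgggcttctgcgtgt
Hsp90b1: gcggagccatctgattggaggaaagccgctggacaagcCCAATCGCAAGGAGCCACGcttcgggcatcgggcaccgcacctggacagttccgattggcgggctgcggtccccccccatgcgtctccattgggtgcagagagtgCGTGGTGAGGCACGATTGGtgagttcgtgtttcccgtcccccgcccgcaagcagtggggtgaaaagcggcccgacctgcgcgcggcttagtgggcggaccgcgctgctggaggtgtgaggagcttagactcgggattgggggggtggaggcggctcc
Creld2: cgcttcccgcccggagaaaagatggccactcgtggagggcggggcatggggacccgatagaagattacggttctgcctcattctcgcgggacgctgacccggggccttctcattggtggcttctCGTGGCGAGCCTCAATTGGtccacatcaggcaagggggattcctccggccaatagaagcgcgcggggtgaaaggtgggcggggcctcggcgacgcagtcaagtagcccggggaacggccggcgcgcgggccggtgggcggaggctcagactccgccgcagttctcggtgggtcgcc
Calr: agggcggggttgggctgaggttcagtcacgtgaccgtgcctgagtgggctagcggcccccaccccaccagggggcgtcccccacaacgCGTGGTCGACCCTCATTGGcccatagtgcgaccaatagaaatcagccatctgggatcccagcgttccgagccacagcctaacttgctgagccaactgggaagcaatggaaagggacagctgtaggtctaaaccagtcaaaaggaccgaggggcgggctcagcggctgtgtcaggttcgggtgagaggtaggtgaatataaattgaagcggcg
Herpud1: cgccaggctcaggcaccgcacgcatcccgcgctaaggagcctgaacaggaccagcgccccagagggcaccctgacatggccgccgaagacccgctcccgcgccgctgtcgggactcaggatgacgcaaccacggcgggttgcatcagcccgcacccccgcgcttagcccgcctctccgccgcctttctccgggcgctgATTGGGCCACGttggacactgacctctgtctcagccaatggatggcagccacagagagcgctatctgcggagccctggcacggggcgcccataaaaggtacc
Sdf2l1: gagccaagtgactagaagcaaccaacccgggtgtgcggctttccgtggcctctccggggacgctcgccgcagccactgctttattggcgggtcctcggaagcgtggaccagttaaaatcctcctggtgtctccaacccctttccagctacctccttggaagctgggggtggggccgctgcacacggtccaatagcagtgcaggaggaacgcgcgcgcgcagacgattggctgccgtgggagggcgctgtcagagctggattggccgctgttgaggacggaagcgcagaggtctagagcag

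The Hspa5 window lies at chr2:34771840-34772139 on the plus strand, and its ERSE spans bases -65 to -47 from the start. The Hsp90b1 window, chr10:86705395-86705694 on the minus strand, holds a forward match at -212 to -194 and a reversed one at -107 to -89. The Creld2 window is chr15:88819396-88819695, plus strand, with a reversed ERSE at -126 to -108. The Calr window is chr8:84846882-84847181, minus strand, with a reversed ERSE at -162 to -144. The Herpud1 window is chr8:94386179-94386478, plus strand, with ERSE-II at -52 to -42 from the RefSeq start, which lies before the start of the gene in the deposited files, 94386500. The Sdf2l1 window is chr16:17132334-17132633, minus strand.

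Expression was given as FPKM, which divides the fragments of a gene by its transcript length and by the size of the library, so that levels of different genes can be compared. A call required at least a 1.5-fold difference on the log2(FPKM + 1) scale and a limma p under 0.05 after Benjamini-Hochberg adjustment across the tested genes of that tissue. Libraries held 4.45 to 8.09 gigabases of coverage over genes, with a median of 5.19. Gadd45gip1, the targeted gene, was at 14.6, 12.5 and 13.6 FPKM in Ctrl livers and at 5.40, 2.0 and 2.51 FPKM in LKO livers 1 to 3, a log2 fold change of -1.84 (adjusted p = 0.00357). The defining transcripts of each tissue were present in its libraries. Markers of other tissues were found as well. In GM the 4 liver markers summed to 17.5 to 226 FPKM in Ctrl and 10.5 to 84.2 in LKO. The 4 fat markers there summed to 12.7 to 75.6 and 11.6 to 103 FPKM. In iWAT the 4 muscle markers summed to 40.7 to 413 FPKM in Ctrl and 25.5 to 632 in LKO. Their part in the levels of the 10 genes was not tested. Over all tested genes the deposited values of LKO livers were shifted up by a median of 0.33 log2. Values rescaled by the median-ratio method, which removes this shift, are therefore given beside the deposited ones for the 10 genes and the gene lists in liver. In whole tissue, fewer cells of a type and less RNA per cell cannot be told apart.

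None of the 10 genes was called changed in the LKO liver. Of the 10956 genes tested there, 27.4% were called. With no fold limit the count for the 10 genes was again 0, against 43.8% of all genes, and at an unadjusted p under 0.05 it was 0 against 55.9%. The median log2 fold change of the 10 was -0.00, with 5 above 0 and 5 below, and the range was -0.18 to 0.46. On deposited FPKM the LKO and Ctrl livers overlapped for every one of them, whereas they were fully separated for 61.1% of tested genes. After median-ratio scaling none of the 10 was called either, against 17.3% of genes, and their median was -0.40, with 1 of 10 above 0. On that scale each LKO liver lay below each Ctrl liver for Dnajb9 and Xbp1, and the share of all genes so separated was not counted.

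**Figure D1:**
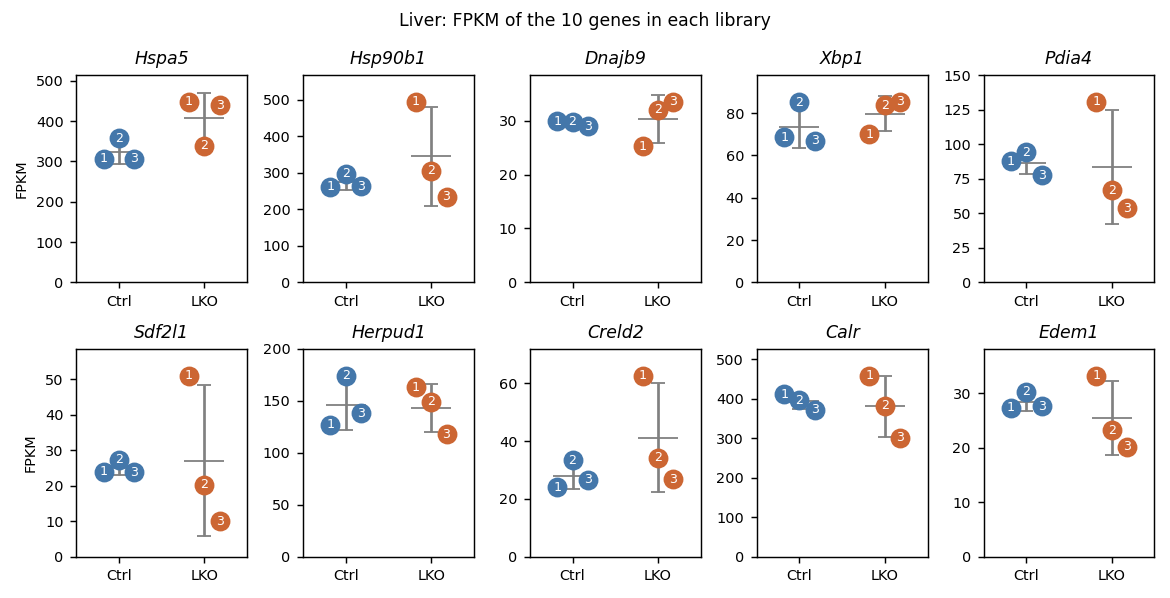
FPKM of the 10 genes in each liver library, with Ctrl in blue and LKO in orange, the replicate number inside each point, and the mean and SD (n = 3) in grey on axes that start at 0. The 2 groups overlap in all 10 panels, and LKO 1 is the highest of the 6 livers in 7 of them.

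The major lumenal chaperones were abundant in both genotypes. Hspa5 encodes BiP, the Hsp70 of the ER lumen and the usual marker of ER stress. It was at 307, 357 and 306 FPKM in Ctrl livers and at 448, 339 and 439 FPKM in LKO livers. LKO 2 fell below the highest Ctrl liver while the other two LKO livers lay above it. The log2 fold change was 0.33 ± 0.15 (SE, n = 3 per group), with a 95% confidence interval of -0.01 to 0.67 and an adjusted p of 0.0993, and on scaled values it was -0.07. It stayed under the fold limit in all alternatives, although the adjusted p was 0.0342 on deposited TPM (log2 fold change 0.45) and 0.023 in a fit of all 24 libraries. The deposited estimate of Hspa5 thus equalled the median shift of all genes.

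Hsp90b1 encodes GRP94, the lumenal Hsp90. It was at 262, 298 and 264 FPKM in Ctrl and at 495, 306 and 234 FPKM in LKO livers, from the highest to the lowest value of the 6 within the LKO group. Its log2 fold change was 0.26 ± 0.26 (SE; adjusted p = 0.415). On scaled values it was -0.14 (adjusted p = 0.78). On deposited FPKM it was -0.04 without LKO 1 and 0.50 without LKO 3. Calr encodes calreticulin, the lectin chaperone that binds calcium and newly made glycoproteins. It was at 412, 396 and 372 FPKM in Ctrl and at 458, 382 and 302 FPKM in LKO livers, a log2 fold change of -0.07 (adjusted p = 0.75). Without LKO 3 it was 0.09. On scaled values it was -0.46 (adjusted p = 0.179), and on that scale Calr was called lower without LKO 1. On deposited FPKM both genes had their highest and their lowest value of the tissue in LKO livers.

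The co-chaperones and smaller lumenal proteins included the most variable gene of the set. Sdf2l1, a partner of ER J-domain proteins, was at 24, 27.3 and 23.9 FPKM in Ctrl livers and at 51.0, 20.3 and 9.97 FPKM in LKO livers. The Ctrl values lay within a narrow band and the LKO values lay on both sides of it. The log2 fold change of -0.18 had a confidence interval from -1.33 to 0.98 (adjusted p = 0.774), and leaving out 1 library turned it to 0.36 (without LKO 3) or to -0.77 (without LKO 1), where it was called.

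Creld2, a secreted protein with disulfide isomerase activity, was at 24.1, 33.4 and 26.7 FPKM in Ctrl and at 62.5, 34.2 and 26.8 FPKM in LKO livers. LKO 1 and, by a narrow margin, LKO 2 lay above the Ctrl range. Its log2 fold change was 0.46, with an adjusted p of 0.223. It was 0.12 without LKO 1 and 0.71 without LKO 3, and 0.07 on scaled values. Dnajb9 encodes ERdj4, a co-chaperone that returns BiP to IRE1. It was at 29.9, 29.8 and 28.9 FPKM in Ctrl and at 25.2, 32.0 and 33.5 FPKM in LKO livers, a log2 fold change of 0.02 (adjusted p = 0.899). On deposited FPKM Dnajb9 ran the other way from Sdf2l1, with LKO 1 the lowest of the 6 livers. On the median-ratio scale its log2 difference was -0.37 (adjusted p = 0.0145), below the fold limit. It was the only one of the 10 with an adjusted p under 0.05 on that scale, where 32.2% of all genes passed. There LKO 1, 2 and 3 were close together, at -0.42, -0.29 and -0.39 from the Ctrl mean, with an LKO SD of 0.06.

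The disulfide and degradation genes were not called on either scale. Pdia4 encodes ERp72, a protein disulfide isomerase. It was at 88.0, 94.4 and 77.8 FPKM in Ctrl and at 131, 66.9 and 53.8 FPKM in LKO livers, 1 above and 2 below all Ctrl values (log2 fold change -0.15, adjusted p = 0.69). Edem1, a lectin that routes misfolded glycoproteins to degradation, was at 27.4, 30.3 and 27.6 FPKM in Ctrl and at 33.2, 23.2 and 20.2 FPKM in LKO livers, a log2 fold change of -0.18 (adjusted p = 0.425). Herpud1, a membrane scaffold of the degradation complex, was at 127, 174 and 138 FPKM in Ctrl and at 163, 149 and 118 FPKM in LKO livers, a log2 fold change of -0.03 (adjusted p = 0.892). Edem1 split like Pdia4, and Herpud1 differed little between the groups on deposited FPKM. On scaled values the log2 fold changes of Pdia4, Edem1 and Herpud1 were -0.54, -0.56 and -0.43 (adjusted p = 0.315, 0.131 and 0.206).

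Xbp1 encodes the transcription factor that IRE1 activates by splicing its mRNA. It was at 68.5, 85.1 and 66.9 FPKM in Ctrl and at 70.1, 83.7 and 85.4 FPKM in LKO livers. On deposited FPKM the groups covered nearly the same range, with a log2 fold change of 0.12 (95% confidence interval -0.20 to 0.44, adjusted p = 0.478). On scaled values the log2 fold change was -0.27 (adjusted p = 0.126). Each LKO liver then lay below each Ctrl liver, at -0.26, -0.22 and -0.35 from the Ctrl mean for LKO 1, 2 and 3. A gene-level FPKM sums spliced and unspliced mRNA, so IRE1 activity was not measured here.

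**Figure D2:**
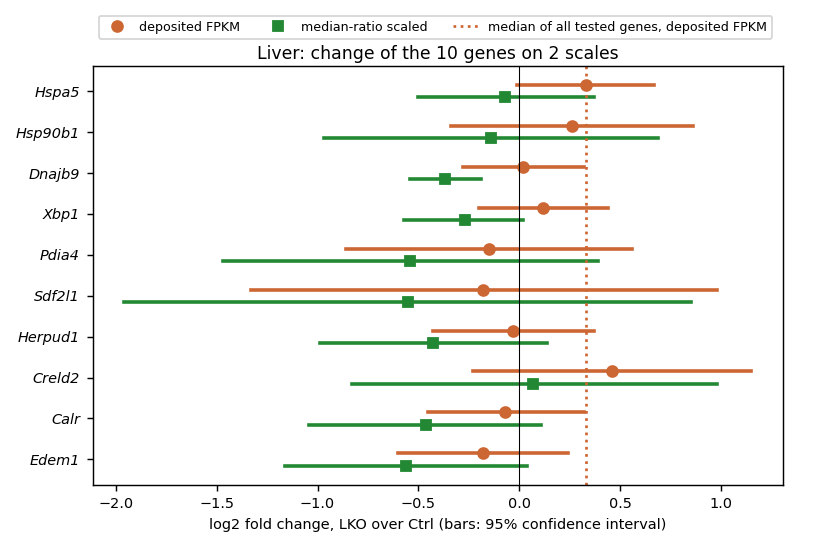
Log2 fold change of LKO over Ctrl liver for the 10 genes with 95% confidence intervals, on deposited FPKM (orange circles) and after median-ratio scaling (green squares), with the dotted line at the median of all tested genes, 0.33. Every deposited interval crosses 0, and of the scaled ones that of Dnajb9 alone does not.

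Precision differed among the 10 genes. The SD of log2(FPKM + 1) among the 3 LKO livers had a median of 0.33 over the 10 genes, against 0.21 over all tested genes, while among Ctrl livers it was 0.12 against 0.09. Sdf2l1, Pdia4 and Creld2 had LKO SDs of 1.13, 0.66 and 0.61. For Xbp1 and Dnajb9 the LKO SDs were 0.16 and 0.21, and the upper ends of their intervals, 0.44 and 0.32, lay under the fold limit. The intervals of Pdia4, Herpud1, Calr and Edem1 also ended below a 1.5-fold rise, whereas those of Hspa5, Hsp90b1, Sdf2l1 and Creld2 did not.

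The spread among LKO livers was shared by most of the set. Within liver, LKO 1 had the highest value for 7 of the 10 genes (Hspa5, Hsp90b1, Pdia4, Sdf2l1, Creld2, Calr and Edem1), although it was the highest library for only 9.36% of all tested genes. LKO 3 had the lowest value for 6 of the 10 (Hsp90b1, Pdia4, Sdf2l1, Herpud1, Calr and Edem1), against 9% of all genes, and it was the highest library for 63.6% of genes. Relative to the mean of the Ctrl livers, the 10 genes had a median log2 difference of 0.35 in LKO 1, 0.06 in LKO 2 and -0.26 in LKO 3. The same medians over all tested genes were 0.16, 0.34 and 0.49. On scaled values all 10 genes lay below every Ctrl liver in LKO 3 and 9 of 10 did in LKO 2, against 41.9% and 40.1% of all genes. In LKO 1, 5 of the 10 lay above every Ctrl liver on that scale, against 35.9%.

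Most integrated stress response transcripts were highest in LKO 3, 10 of 12 on deposited FPKM against 63.6% of all genes, and 9 of 12 on scaled values against 27.5%. Of 12 listed transcripts 8 rose in LKO liver and none fell, against 27.4% of all genes called, and 7 were called after median-ratio scaling, against 17.3%. Ddit3, which encodes CHOP, was at 7.97, 8.03 and 7.24 FPKM in Ctrl livers and at 18.9, 86.2 and 217 FPKM in LKO 1, 2 and 3 (log2 fold change 3.05, adjusted p = 0.0189). Trib3, a pseudokinase induced by ATF4 and CHOP, was under 2 FPKM in Ctrl livers and at 10.7, 75.9 and 200 FPKM in LKO livers, a log2 fold change of 4.51 (adjusted p = 0.0098). Atf3 was at 8.46, 22.7 and 56.7 FPKM and Nupr1 at 59.3, 311 and 909 FPKM in LKO 1, 2 and 3, against under 2 FPKM in each Ctrl liver. Atf3 was under 1 FPKM in all 3 Ctrl livers, passed the filter only through the LKO livers, and was not tested when one of these was left out. Among LKO livers all 4 were lowest in LKO 1, the liver with the most Sdf2l1, Pdia4 and Creld2, and highest in LKO 3, the liver with the least Sdf2l1 and Pdia4. LKO 1 also kept the most Gadd45gip1.

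**Figure D3:**
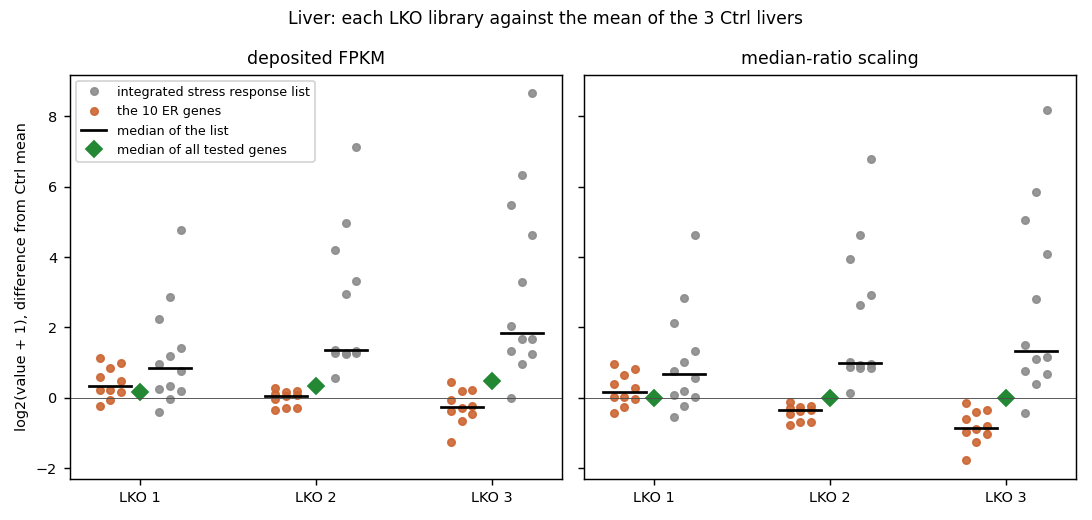
Difference of each LKO liver from the mean of the 3 Ctrl livers on the log2(value + 1) scale, for the 10 ER genes (orange) and the 12 integrated stress response transcripts (grey), with black bars for list medians and green diamonds for the median of all tested genes. The ER medians are 0.35, 0.06 and -0.26 on deposited FPKM where the stress response medians are 0.86, 1.36 and 1.85.

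The order of the 3 LKO livers is a description over 3 libraries and has no test. Without LKO 1, 1 of the 10 genes was called, Sdf2l1, which was lower (log2 fold change -0.77, adjusted p = 0.0214), against 37.4% of all genes called and 4.97% called lower. Pdia4 (-0.52, adjusted p = 0.00796) and Edem1 (-0.37, adjusted p = 0.0131) also reached an adjusted p under 0.05 there without passing the fold limit, and no member did so upward, against 67.4% of all genes with such a p and 8.55% that were lower. On scaled values without LKO 1, 5 of the 10 were called and all 5 were lower, against 11.6% of genes called lower. The median log2 fold change of the 10 on deposited FPKM was -0.08, -0.03 and 0.11 without LKO 1, 2 and 3, against 0.40, 0.31 and 0.24 over all genes, so its sign depended on the library left out. On scaled values it was -0.40 with all libraries and -0.55, -0.39 and -0.17 without LKO 1, 2 and 3, lower each time. The scaled calls were different, since 5 were made without LKO 1 and 0 without LKO 2 or LKO 3.

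The wider ER lists, fixed with earlier results of these data known, held 1 or 2 calls each on deposited FPKM and 0 to 2 on scaled values, to be read against 27.4% and 17.3% of all genes. The lumenal chaperone list includes Hspa5, Hsp90b1, Calr, Dnajb9, Sdf2l1 and Creld2, the disulfide list Pdia4 and the degradation list Edem1 and Herpud1. Counts and medians of these lists thus partly repeat the 10 genes. Among 16 lumenal chaperones 1 was called, Dnajc10, a disulfide reductase with a J domain, at 5.73, 5.89 and 6.26 FPKM in Ctrl and 12.9, 12.8 and 14.1 FPKM in LKO livers, a log2 fold change of 1.03 (adjusted p = 0.00116). Unlike the 10 genes it was nearly equal in the 3 LKO livers. Of 13 disulfide enzymes 2 were called higher, Txndc12 (log2 fold change 0.78) and Ero1l, the oxidase that recharges protein disulfide isomerase (0.75). Derl1, a membrane protein of ER-associated degradation, was the only one called of 20 in that list (1.01, adjusted p = 0.0154), and Ssr2, of the translocon-associated complex, the only one of 21 tested in the translocon and secretion list (0.61). On scaled values Dnajc10 and Derl1 were again called higher, Txndc12, Ero1l and Ssr2 were not called, and 2 disulfide enzymes, Pdia5 and Txndc11 (-0.83 each), and 1 degradation gene, Derl2 (-0.83), were called lower. These counts depended on LKO 1. Without it the degradation list held 4 calls of 20 on deposited FPKM, under the 37.4% of all genes, and without LKO 2 it held 0, against 12.9%. On scaled values without LKO 1, 5 of 16 lumenal chaperones, 7 of 13 disulfide enzymes and 7 of 20 degradation genes were called lower, but 0 of 21 in the translocon and secretion list, against 11.6% of genes. Without LKO 2 or LKO 3 at most 1 in each list was, against 4.09% and 5.34% of all genes. The medians of these 4 lists were 0.13, 0.02, 0.17 and 0.20, each under the 0.33 of all genes, and on scaled values they were -0.25, -0.38, -0.21 and -0.18.

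Among the ER stress sensors and their processing factors some genes rose. Of 10 listed 4 did, against 27.4% of all genes called, and the median was 0.59. Eif2ak3, the PERK kinase, was at 4.92, 3.94 and 5.11 FPKM in Ctrl and 6.65, 10 and 10.9 FPKM in LKO livers, a log2 fold change of 0.83 (adjusted p = 0.0148). Atf6 was at 10.4, 11.5 and 9.84 FPKM in Ctrl and 12.6, 17.2 and 21.0 FPKM in LKO livers (0.61, adjusted p = 0.0333). Mbtps2, the protease that cuts ATF6 within the Golgi membrane, changed by 0.76 (adjusted p = 0.0248) and Creb3l1, a related membrane factor, by 0.79 (adjusted p = 0.00334) from 0.399 FPKM on average. Creb3l1 reached the filter of 1 FPKM in 3 of 6 livers only through the 3 LKO livers, so it could only be called higher, and it was not tested when an LKO liver was left out. On deposited FPKM the LKO and Ctrl livers were apart for 6 of the 10, close to the 61.1% of all genes. Without LKO 1, 4 of 9 tested were called, without LKO 2 none and without LKO 3 only 1, against 37.4%, 12.9% and 16.5% of all genes. After scaling Creb3l1 was the 1 of 10 called, so that of the 9 others none was, and 3, 0 and 0 were called without LKO 1, 2 and 3, against 22.7%, 9.29% and 11.5% of all genes, while Eif2ak3 had a log2 fold change of 0.48. Ern1 (0.72, adjusted p = 0.132), Mbtps1 (0.26), Creb3l2 (0.57), Atf6b (0.04) and Creb3l3 (-0.03) were not called, nor was Xbp1, the tenth of the list.

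Further transcripts of the integrated stress response rose as well. Atf5 had a log2 fold change of 1.18, Asns, which makes asparagine, 2.56, Sesn2 1.12 and Eif4ebp1 1.06. Eif4ebp1 was not called on scaled values (0.68, adjusted p = 0.0801). Neither Sesn2 nor Eif4ebp1 was called without LKO 2 or without LKO 3. Atf4 itself was at 53.3, 81.2 and 107 FPKM in LKO livers against 54.4, 58.8 and 51.8 FPKM in Ctrl livers and was not called (0.49, adjusted p = 0.12). Ppp1r15a (1.16, adjusted p = 0.0603), Cebpb (1.11) and Chac1 (0.29) were not called. Without LKO 1, 9 of the 11 tested were called, without LKO 2 the count was 4 and without LKO 3 it was 5, against 37.4%, 12.9% and 16.5% of all genes. On scaled values these counts were 8, 3 and 5, against 22.7%, 9.29% and 11.5%.

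Heat shock proteins of the other compartments were read for comparison. Of 12 mitochondrial chaperones and proteases 5 rose, among them Lonp1, the matrix protease (log2 fold change 1.51), and Hspa9, the mitochondrial Hsp70 (1.20), with a list median of 0.51 and 27.4% of all genes called. Hspa9 was at 249, 444 and 607 FPKM in LKO livers against 168 to 188 FPKM in Ctrl. Of 10 cytosolic heat shock genes 2 rose, Hspb1 (1.54) and Hsp90aa1 (0.84), and 1 fell, Hspa1b (-0.85), with a median of -0.03, so that 3 of 10 were called, near the share of all genes. On scaled values Hspa9 and Lonp1 were the 2 of 12 mitochondrial genes called, close to the 17.3% of all genes, and of the cytosolic genes none was called higher and 3 were called lower, Hspa1a, Hspa1b and Bag3. Without LKO 1, 2 and 3 the mitochondrial calls were 6, 0 and 2 on deposited FPKM, against 37.4%, 12.9% and 16.5% of all genes, and 3, 0 and 0 on scaled values. Hspa9 was not called without LKO 2, and Lonp1 was called neither without LKO 2 nor without LKO 3. The cytosolic calls on scaled values were 5, 2 and 2 of 10, and on that scale 22.7%, 9.29% and 11.5% of all genes were called.

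**Figure D4:**
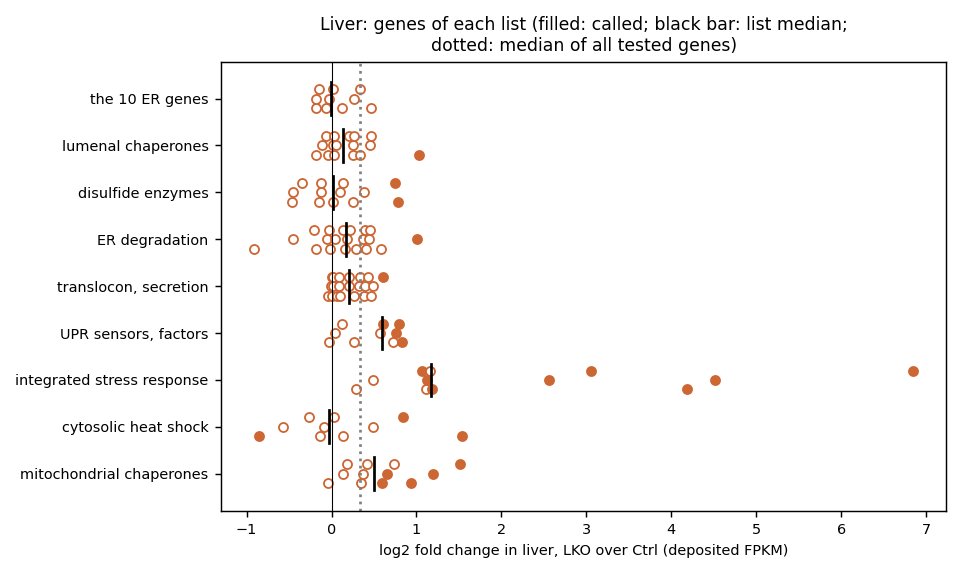
Log2 fold change of LKO over Ctrl liver on deposited FPKM for each tested gene of the 9 lists, filled where called, with a black bar at the list median and a dotted line at the median of all tested genes. The median of the 10 ER genes sits at -0.00 and that of the integrated stress response list at 1.17.

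Markers of cells other than hepatocytes also moved with genotype in liver. All 4 macrophage, 4 Kupffer cell and 4 cholangiocyte markers rose, against 27.4% of all genes called. No cholangiocyte marker reached 1 FPKM in more than 1 Ctrl liver, and Krt7 and Epcam passed the filter only through the LKO livers, so their count is a description. Both neutrophil markers tested, of 4 listed, were also called higher, and the 4 summed to 0.943 to 1.44 FPKM in Ctrl and 7.38 to 9.45 FPKM in LKO livers. S100a8, one of the pair, passed the filter only through the LKO livers. S100a9, the other, was at 0.652, 0.797 and 1.14 FPKM in Ctrl livers, so this count is also a description. On scaled values Epcam (0.45) and Timd4, a Kupffer cell marker (0.51), were not called. Summed over each list, macrophage, Kupffer cell and cholangiocyte markers were at 66.0 to 72.2, 91.4 to 95.5 and 2.63 to 3.35 FPKM in Ctrl livers. In LKO livers the sums were 168 to 249, 193 to 290 and 7.53 to 11.3 FPKM. The 5 genes listed for plasma cells, which are rich in ER chaperones, summed to 74.3 to 84.7 FPKM in Ctrl and 98.4 to 139 FPKM in LKO livers, and 0 of the 2 tested were called. Nearly all of that sum was Sdc1, which hepatocytes also express, at 133 FPKM in LKO 1. The defining markers Jchain and Mzb1 were under 0.6 FPKM in each liver and Tnfrsf17 was at 0 in 5 of the 6. Of the pancreatic acinar markers 4 of 5 were at 0 in all 6 livers. The part of these cells in the levels of the 10 genes was not tested.

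None of the 10 genes was called outside the liver. In iWAT 0 of 10 were called, against 0% of 12288 genes, and the groups did not overlap for 1, Dnajb9, against 20.8% of genes. Dnajb9 was at 18.6, 20 and 20.6 FPKM in Ctrl and at 22.7, 23.5 and 25.9 FPKM in LKO iWAT (log2 fold change 0.27, unadjusted p = 0.0123, adjusted p = 0.203 by limma). It was the only one of the 10 with an unadjusted p under 0.05 there, against 15% of genes.

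In GM 0 of 10 were called, against 0% of 10877 genes, and 1 had an unadjusted p under 0.05, against 6.83%. Hspa5 was at 59.9, 56.1 and 51.0 FPKM in Ctrl and at 78.0, 64.5 and 62.7 FPKM in LKO muscle, with no overlap (log2 fold change 0.29, unadjusted p = 0.0235, adjusted p = 0.654 by limma). Herpud1 was lower in each LKO than in each Ctrl muscle (-0.12, adjusted p = 0.832), and the groups were apart for 11.6% of all genes. LKO 1 was the highest of the 6 muscles for 8 of the 10 genes, but it was so for 37.5% of all genes too. Adipoq, a fat marker, was at 27.3, 39.1 and 6.62 FPKM in Ctrl and 48.1, 6.53 and 10.5 FPKM in LKO muscle. The part of fat in these values was not tested.

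In hypothalamus 0 of 10 were called, against 0.0217% of 13828 genes. Hspa5, Hsp90b1, Pdia4 and Sdf2l1 were higher and Edem1 was lower in every LKO than in every Ctrl hypothalamus, 5 of 10 against 9.7% of all genes. Their sizes were small. Hspa5 was at 143, 171 and 171 FPKM in Ctrl and 179, 180 and 181 FPKM in LKO libraries (log2 fold change 0.16), and Sdf2l1 at 8.84, 13.2 and 14.2 against 14.8, 14.4 and 15.5 FPKM (0.30). No adjusted p was under 0.999, and Ctrl 1 was the lowest of the 6 libraries for 8 of the 10 genes, against 27.2% of all genes. Summed pituitary markers also differed, with 85.6 to 128 FPKM in Ctrl and 177 to 699 FPKM in LKO hypothalamus, and their part in these values was not tested. At an unadjusted p under 0.05 the count of the 10 genes was 0, against 3.72% of genes.

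No difference between tissues in the effect of LKO was detected for the 10 genes. In the limma interaction test over all 24 libraries 0 of 10 passed, against 33.5% of 15849 genes, and the smallest p was that of Hspa5 (unadjusted p = 0.0889, adjusted p = 0.174). After median-ratio scaling Dnajb9 passed (adjusted p = 0.00133), against 23.7% of genes.

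In Ctrl mice most of the 10 genes were highest in liver. All 10 genes differed between the 4 Ctrl tissues, against 99% of 15320 genes, so that this count says nothing particular of them. Liver had the highest mean FPKM for 9 of 10, the exception being Xbp1, at 95.1 FPKM in iWAT and 73.5 FPKM in liver (adjusted p = 0.0546). GM had the lowest for 9 of 10. Pdia4 had the widest range, at 86.7 FPKM in liver, 61.5 in iWAT, 23.6 in hypothalamus and 5.66 in GM, a log2 difference of 3.73 between liver and GM. Edem1 followed with 28.4, 24.4, 4.35 and 1.91 FPKM in the same order (3.34), and each step of both genes was past the test on deposited FPKM, while on scaled values Edem1 in hypothalamus and GM did not differ beyond the spread (adjusted p = 0.202). Herpud1 was the exception in muscle, with 146 FPKM in liver, 56.1 in GM, 39.6 in hypothalamus and 34.8 in iWAT, the last pair not differing beyond the spread (adjusted p = 0.159).

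Hspa5 stood at 323 ± 28.8 FPKM (SD, n = 3) in Ctrl liver, 211 in iWAT, 162 in hypothalamus and 55.7 in GM, each step past the test. Hsp90b1 was at 275, 190, 183 and 38.9 FPKM in that order, where iWAT and hypothalamus did not differ beyond the spread (adjusted p = 0.836). The same pair missed the threshold for Sdf2l1 (15 and 12.1 FPKM, adjusted p = 0.342) or Creld2 (20.5 and 18.6 FPKM, adjusted p = 0.45), for which liver was at 25.1 and 28.1 FPKM and GM at 2.28 and 5.03 FPKM. Calr was at 393 FPKM in liver, 370 in iWAT (adjusted p = 0.491 for this pair), 231 in hypothalamus and 63.1 in GM. Dnajb9 had the flattest profile, from 29.5 FPKM in liver and 26.2 in hypothalamus to 19.7 in iWAT and 13.0 in GM. Xbp1 was at 41.9 FPKM in hypothalamus and 19.3 in GM. These levels depend on the scaling between tissues, and after median-ratio scaling Dnajb9, Xbp1 and Edem1 no longer differed between GM and hypothalamus (adjusted p = 0.938, 0.493 and 0.202), Dnajb9 was lower in iWAT than in GM (log2 difference -0.20), and liver stood above iWAT for Xbp1 and Calr.

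**Figure D5:**
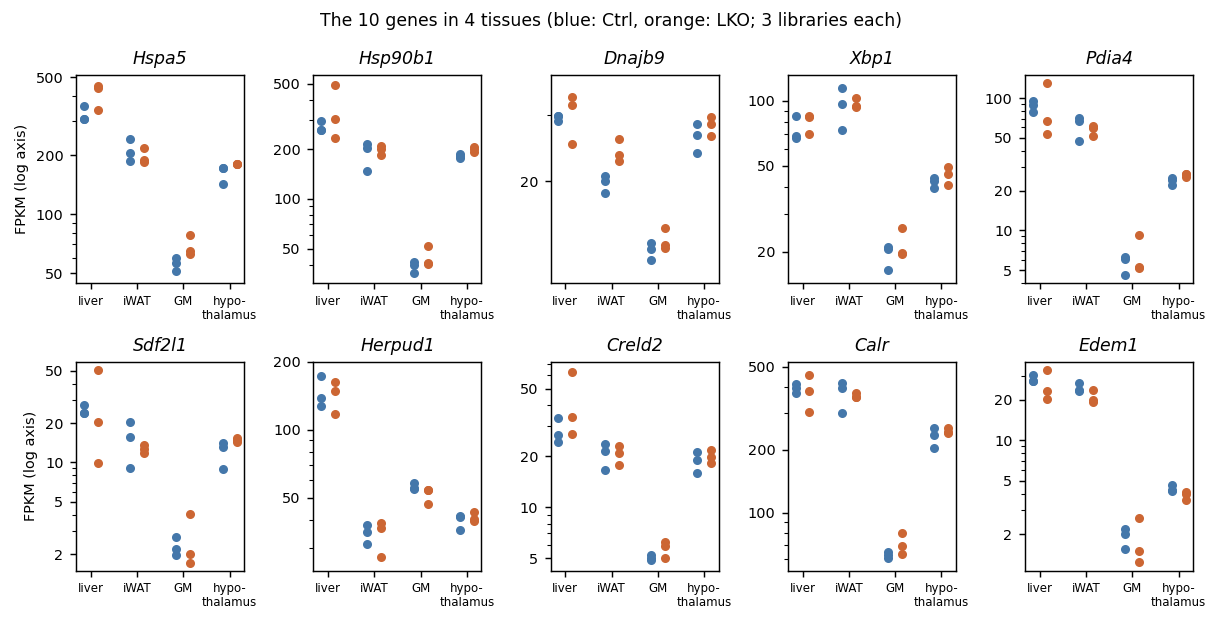
FPKM of the 10 genes on a log axis in the 4 tissues, with the 3 Ctrl libraries in blue and the 3 LKO libraries in orange. GM holds the lowest Ctrl values in all panels but that of Herpud1, and Sdf2l1 in LKO liver runs from 9.97 to 51.0 FPKM.

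How closely the 10 genes moved together was measured on deposited FPKM over all 24 libraries, after subtraction of the mean of each tissue and genotype. Pdia4, Hsp90b1 and Sdf2l1 followed the mean of the other members most closely, with Pearson r of 0.948, 0.945 and 0.929, and Creld2 and Calr reached 0.876 and 0.866. Edem1 (0.559), Hspa5 (0.509), Herpud1 (0.464) and Xbp1 (0.327) followed it less, and Dnajb9 went the other way (-0.417). Among 9012 other genes tested in all 4 tissues, those most like the mean of the 10 were Tram1, a translocon protein (0.958), the disulfide isomerases Pdia6 (0.922) and Pdia3 (0.922), Spcs2, a signal peptidase subunit (0.913), and Txndc5 (0.903). None of these 5 was called in liver, where 27.4% of all genes were and their log2 fold changes were 0.09, -0.13, 0.02, 0.06 and 0.25. Of the 10 genes most like the mean, 1 was called, Bmp1, a procollagen protease, which was lower (-0.79, adjusted p = 0.0136). These r values are descriptions that share libraries and depth. Both sets were picked by their spread within groups of these same libraries, so their counts called are descriptions too. The mean of the 10 lay farthest from its group mean in liver LKO 1 (0.38 log2), liver LKO 3 (-0.31) and iWAT Ctrl 1 (-0.25).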

How the data were processed

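Total RNA of 24 mouse libraries (4 tissues, 2 genotypes, 3 per group) was made into unstranded TruSeq v2 libraries and sequenced on a HiSeq4000. The submitters' processing notes name FastQC 0.11.5, Trimmomatic 0.32, HISAT2 2.0.5, Bowtie2 2.2.6, STAR 2.5.2b and StringTie 1.3.3b and build mm10, with no roles. The authors deposited FPKM values per gene in a joined table, and FPKM, TPM and mean coverage per gene for each library. At least 99.84% of genes at a single place had the same FPKM in both. Coverage served only to sum bases per library, since fragment counts are not given, and no count test was used.

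Groups came from genotype and tissue labels. For each tissue, genes with at least 1 FPKM in 3 of 6 libraries were fitted by limma 3.58.1 (R 4.3.3, trended variances) on log2(FPKM + 1), with LKO against Ctrl. With a pseudocount of 1, folds of low genes are understated. Interaction and Ctrl tissue effects were tested by limma F tests. An exact permutation test of 3 against 3 libraries cannot go below 0.1. The labels do not say that libraries are separate animals, so p-values measure the spread between these libraries. Alternatives were pseudocount, filters, TPM, median-ratio and quantile scaling, ordinary variances, a joint fit, a replicate block, other call rules and leaving out each library.

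The 10 genes and all lists were chosen with earlier results of these data known. Named genes were the 10, the sensor and integrated stress response lists, the targeted gene, up to 2 largest called rises and falls in liver per other list, and the 5 genes most like the mean of the 10. Bmp1, the single cell type markers and the genes called on scaled values alone were named after their values were seen. Pdia4 contains Mir704 on the same strand, and no other of the 10 overlaps an annotated gene. Promoters came from RefSeq (GRCm38.p6, the coordinates of mm10), and all 10 matched by symbol. Python with pandas and matplotlib drew the figures.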

Additional observations from a re-analysis of the deposited data

How the results depend on the processing

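In liver, 0 of the 10 genes were called under each of the 9 refits (pseudocount 0.1, no filter, a mean of at least 5 FPKM, TPM, median-ratio or quantile scaling, ordinary variances, all 24 libraries in 1 fit, the replicate block), under both other call rules and without any 1 library other than LKO 1. Leaving out libraries gave 0 to 1 called, the 1 being Sdf2l1 without LKO 1, and an alternative added after seeing the data, median-ratio scaling without LKO 1, gave 5. No alternative called any of the 10 in iWAT, GM or hypothalamus, with a range of 0 to 0 when libraries were left out. All 10 differed between Ctrl tissues under every alternative (10 to 10). The LKO effect differed between tissues for 1 gene, Dnajb9, under median-ratio scaling and for 1 under quantile normalization, and for 0 otherwise.

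TPM turned the sign of Herpud1 (0.09) and Calr (0.06). Median-ratio scaling turned Hspa5 (-0.07), Hsp90b1 (-0.14), Dnajb9 (-0.37) and Xbp1 (-0.27), and quantile normalization Dnajb9 (-0.30) and Xbp1 (-0.06). Both scalings remove the shift of all genes by construction. The signs of Creld2 and Edem1 held in all 15 alternatives, which leave out median-ratio scaling without LKO 1. On scaled values Creld2 in LKO 2 and LKO 3 lay -0.11 and -0.61 from the Ctrl mean. Leaving out libraries gave log2 fold changes of 0.12 to 0.71 for Creld2, -0.37 to -0.03 for Edem1, 0.26 to 0.46 for Hspa5, 0.06 to 0.23 for Xbp1, -0.04 to 0.50 for Hsp90b1, -0.06 to 0.14 for Dnajb9, -0.52 to 0.11 for Pdia4, -0.77 to 0.36 for Sdf2l1, -0.13 to 0.11 for Herpud1 and -0.21 to 0.09 for Calr.

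Over all genes the count called in liver was 3006. It was 1776 with the mean filter, 4822 with TPM, 1897 with median-ratio scaling, 1645 with quantile normalization, 1499 with ordinary variances and 4794 with no fold limit, and leaving out 1 library gave 1343 to 3907. In iWAT 0 genes were called, but 14 after median-ratio scaling, 15 after quantile normalization, 314 in the fit of all 24 libraries, 399 at an unadjusted p and up to 106 without 1 library. In GM the 0 became 22 in the joint fit, 98 at an unadjusted p and up to 13 without 1 library, and the 3 of hypothalamus ranged from 0 to 46. The interaction test passed 5306 genes, 3217 after quantile normalization and 3510 to 7142 without 1 library. In liver the calls went from 2622 higher and 384 lower to 1072 and 825 under median-ratio scaling. Replicate numbers were not taken to pair the samples, since in each tissue at least 1 of the 3 same-number correlations was not over 0.1 (0.0276 to 0.154 in liver, -0.124 to 0.302 in iWAT, 0.0499 to 0.354 in GM, -0.135 to 0.14 in hypothalamus), and the replicate block gave 0 called of the 10 in each tissue.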
